A study of Saccharomyces cerevisiae with 16 samples.

Results

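Transcript levels of 8 yeast genes for the making, uptake and control of thiamine (vitamin B1) and vitamin B6 are described here: THI4, THI20, THI21, THI80, THI7, THI2, SNZ1 and SNO1. They were chosen by gene symbol. Each of the 8 was measured and passed the filter on low values, and 0 of them lay on a probe set shared with related sequences, among 5449 genes measured and 5213 tested. The strain was the haploid *Saccharomyces cerevisiae* CEN.PK113-7D, grown on mineral salts medium with glucose limiting, after which the glucose in the feed was raised linearly and ammonia became limiting. One series without oxygen and one with oxygen gave 8 arrays each. Anaerobic samples were early at 0, 4.35 and 10.38 h (1, 4.87 and 10.31 g/L feed glucose), mid at 16.88 and 26.52 h (16.19 and 24.86 g/L) and late at 35.67, 42.85 and 50.85 h (33.1, 39.56 and 46.75 g/L). Aerobic samples were early at 0, 4.1 and 6.85 h (1, 5.51 and 8.5 g/L), mid at 9.6 and 14.5 h (11.56 and 16.96 g/L) and late at 27.25, 42.65 and 53.95 h (30.97, 47.91 and 60.34 g/L). The labels give neither the vitamins of the medium nor the sample at which ammonia became limiting.

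Thiamine diphosphate is the cofactor of pyruvate decarboxylase, transketolase and the 2-oxo acid dehydrogenases, and so of both fermentation and respiration. Yeast makes thiamine by joining a thiazole and a pyrimidine, or takes it up, and it raises most of these genes together through the regulators Thi2, Thi3 and Pdc2 when thiamine is scarce. Pyridoxal phosphate, the active form of vitamin B6, is the cofactor of aminotransferases and many other enzymes of amino acid metabolism. Snz1 and Sno1 form the enzyme that makes pyridoxal phosphate, and their genes are known for high expression in cells that have stopped growing or lack amino acids.

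Each value is a log2 intensity of a probe set, so levels are compared between samples of a gene and not between genes. Each oxygen condition was run as 1 series, so the effects of oxygen and of the culture cannot be told apart. Nothing says that the serial samples were separate cultures. The p-values therefore cover the spread between these samples alone, and the number of arrays limits the precision. The arrays measured total RNA of whole cultures, in which fewer expressing cells and less RNA per cell cannot be told apart. Median values over genes lay between 10.80 and 10.98 on anaerobic arrays and between 11.36 and 11.53 on aerobic arrays. The aerobic 9.6 h array had a median correlation of 0.865 with the rest of its series, against 0.92 to 0.958 for the other aerobic arrays. The 6 genes listed for growth without oxygen averaged 9.81 to 15.06 on anaerobic arrays and 4.96 to 5.34 on aerobic arrays. The 5 genes listed for nitrogen limitation averaged 8.80 to 10.29 on the first 6 anaerobic arrays and 13.53 and 13.69 on the last 2. On aerobic arrays they averaged 8.91 to 10.46 up to 6.85 h and 14.61 to 14.84 from 9.6 h on. The 6 a-cell genes averaged 12.19 to 14.73 and the 4 alpha-cell genes 5.66 to 8.76 over all arrays. Within the alpha-cell list, MF(ALPHA)1 averaged 12.82 ± 0.20 in late and 5.79 ± 0.45 in early aerobic samples (SD, n = 3 each), and MF(ALPHA)2 stayed at or below 2.05 on every array. The part of these shifts in the results below was not tested.

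**Figure D1:**
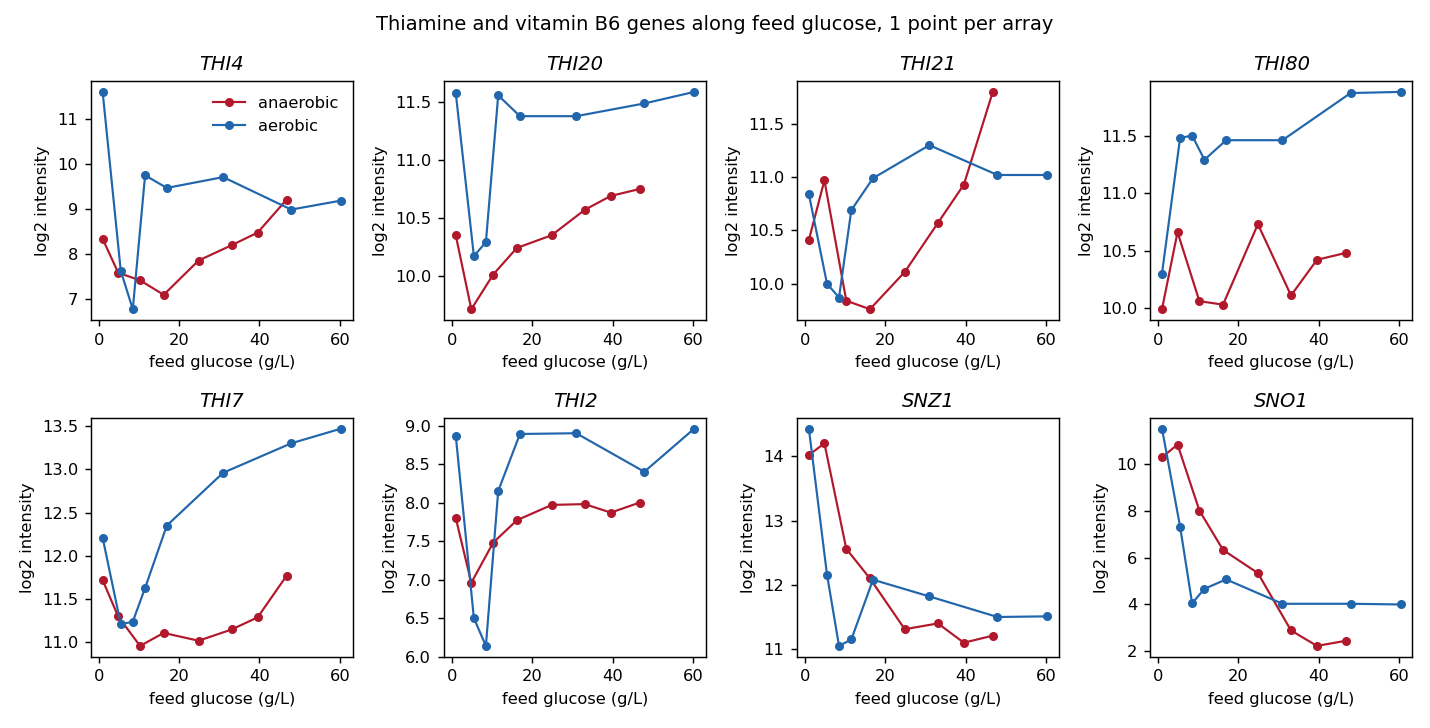
Log2 intensity of the 8 genes (1 panel each) against the glucose in the feed in g/L, with 1 point per array, red for the anaerobic and blue for the aerobic series. In the aerobic series THI4, THI20, THI2, THI7 and THI21 were low at 5.51 and 8.5 g/L and higher from 11.56 g/L on, while SNZ1 and SNO1 were highest at the lowest 2 feed glucose levels in the anaerobic series and at the lowest in the aerobic series.

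The first question was how the genes for making thiamine behaved as feed glucose rose. Between the late and the early samples, none of the 4 passed the test in either series when all 16 arrays were used. The aerobic values of THI4, THI20 and THI21 had a dip at 4.1 and 6.85 h, which lies in the early group together with a higher 0 h array, and those of THI80 did not. THI4 encodes the enzyme that forms the thiazole of thiamine and is spent in the reaction. In the anaerobic series its values were 8.33, 7.58, 7.41, 7.09, 7.85, 8.19, 8.47 and 9.20 in time order. Its aerobic values were 11.59, 7.62, 6.77, 9.74, 9.46, 9.70, 8.98 and 9.18. The anaerobic values formed a shallow trough with its lowest point at 16.88 h, and the aerobic 0 h array stood 3.97 log2 units above the next one, the largest step of the gene in that series. The late minus early change of THI4 was 0.84 ± 0.91 in the anaerobic series (limma, adjusted p = 0.629) and 0.63 ± 0.91 in the aerobic series (adjusted p = 0.672), where ± is the standard error in log2 units. Late and early samples overlapped in both series.

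THI20 encodes a kinase of the pyrimidine branch that also breaks thiamine down. It read 10.35, 9.71, 10.01, 10.24, 10.35, 10.57, 10.69 and 10.75 along the anaerobic series, and 11.58, 10.17, 10.29, 11.56, 11.38, 11.38, 11.49 and 11.59 along the aerobic series. Every aerobic array other than those at 4.1 and 6.85 h was above every anaerobic array. From 4.35 h on, the anaerobic values climbed at each step. The late minus early change was 0.65 ± 0.30 in the anaerobic series, where the groups did not overlap, and 0.81 ± 0.30 in the aerobic series, where they did (adjusted p = 0.226 and 0.0851 by limma).

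THI21 encodes a second kinase of the pyrimidine branch. Its anaerobic values were 10.41, 10.97, 9.84, 9.76, 10.11, 10.57, 10.93 and 11.80, and its aerobic values 10.84, 10.00, 9.87, 10.69, 10.99, 11.30, 11.02 and 11.02. The last anaerobic array was the highest of all 16, and the late anaerobic samples overlapped the early ones through the 4.35 h array. All late aerobic samples were above all early aerobic ones. The late minus early change was 0.69 ± 0.36 in the anaerobic series (limma, adjusted p = 0.275) and 0.88 ± 0.36 in the aerobic series (adjusted p = 0.114).

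THI80 encodes thiamine pyrophosphokinase, which turns thiamine into its cofactor form. It had 9.99, 10.66, 10.06, 10.03, 10.73, 10.11, 10.42 and 10.48 in the anaerobic series and 10.30, 11.48, 11.50, 11.29, 11.46, 11.46, 11.87 and 11.88 in the aerobic series. Unlike the genes above, THI80 had its lowest value at 0 h in both series. The late minus early changes were 0.10 ± 0.31 in the anaerobic and 0.65 ± 0.31 in the aerobic series (limma, adjusted p = 0.878 and 0.179).

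Uptake was next. THI7 encodes the main thiamine transporter of the plasma membrane. With 16 arrays it was the one gene of the 8 called higher in late aerobic samples. The aerobic change of THI2 was 1.58, not called (limma, adjusted p = 0.0725). Without the aerobic 0 h array THI2, THI4, THI20 and THI21 were called higher as well, where 22.3% of tested genes were. The THI7 values were 11.72, 11.30, 10.96, 11.11, 11.02, 11.15, 11.29 and 11.77 in the anaerobic series and 12.21, 11.21, 11.24, 11.63, 12.35, 12.96, 13.30 and 13.47 in the aerobic series. The 3 late aerobic arrays were the highest of all 16 and did not overlap the early ones, and from 4.1 h on the aerobic values increased at every step. In the anaerobic series the values stayed within 0.81 log2 units. THI7 averaged 13.24 ± 0.26 in late and 11.55 ± 0.57 in early aerobic samples (SD, n = 3 each), a change of 1.69 ± 0.30 (SE) or 3.23-fold with an adjusted p of 0.00445 by limma. In late and early anaerobic samples it averaged 11.40 ± 0.32 and 11.33 ± 0.38 (SD, n = 3 each), and the change was 0.08 ± 0.30 (SE, limma adjusted p = 0.907). With a straight line on log2 feed glucose in place of the phases the adjusted p of the aerobic rise was 0.17.

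THI2 encodes a transcriptional activator of the thiamine genes. Its values were 7.80, 6.96, 7.48, 7.77, 7.97, 7.98, 7.87 and 8.0 in the anaerobic series and 8.87, 6.50, 6.14, 8.15, 8.89, 8.90, 8.40 and 8.96 in the aerobic series. The aerobic dip at 4.1 and 6.85 h reached below every anaerobic value, and the other aerobic arrays lay above every anaerobic one. The late minus early change was 0.53 ± 0.55 in the anaerobic and 1.58 ± 0.55 in the aerobic series (limma, adjusted p = 0.61 and 0.0725). Late and early samples did not overlap in the anaerobic series and overlapped through the 0 h array in the aerobic series.

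Of the vitamin B6 genes, SNO1, for the glutaminase subunit of pyridoxal phosphate synthase, fell in late anaerobic samples by the largest change of the 8 genes. Its anaerobic values were 10.28, 10.83, 8.01, 6.33, 5.34, 2.89, 2.23 and 2.45, and its aerobic values 11.51, 7.32, 4.05, 4.67, 5.07, 4.03, 4.03 and 4.00. The anaerobic values declined stepwise over the arrays from 4.35 to 26.52 h and were below 4 from 35.67 h on. By contrast, the aerobic values had dropped to 4.05 by 6.85 h and stayed within 4.00 to 5.07 afterwards. The 3 late anaerobic arrays lay below 4, the floor of the filter on low values, under which values are not ordered here. In late anaerobic samples SNO1 was therefore lower by at least 5.71 log2 units, counted from that floor, with an average of 2.53 ± 0.33 in late and 9.71 ± 1.49 in early samples (SD, n = 3 each). The fitted change was -7.18 ± 1.37 (SE) with an adjusted p of 0.0111 by limma. Leaving out the anaerobic 42.85 h array moved that p to 0.06 at a change of -7.04. For the aerobic series the change was -3.60 ± 1.37 (limma, adjusted p = 0.0928), with averages of 4.02 ± 0.02 in late and 7.62 ± 3.74 in early samples. The early 6.85 h array, at 4.05, was barely above the highest late value of 4.03. These values lie at the floor, with the 53.95 h array just under it, so a separation of late from early aerobic samples is not read here. Without the aerobic 6.85 h array the aerobic change was -5.39 (limma, adjusted p = 0.0149).

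SNZ1, for the synthase subunit of the same enzyme, lies next to SNO1 in the genome (RefSeq gene order, assembly R64). It read 14.02, 14.20, 12.56, 12.10, 11.31, 11.40, 11.10 and 11.21 in the anaerobic series and 14.43, 12.16, 11.05, 11.15, 12.08, 11.82, 11.50 and 11.51 in the aerobic series. The first 2 anaerobic arrays and the aerobic 0 h array were at or above 14.02, and each of the other 13 was at or below 12.56. The change was -2.36 ± 0.68 in the anaerobic series, with no overlap between late and early samples, and -0.94 ± 0.68 in the aerobic series, where they overlapped (limma, adjusted p = 0.0654 and 0.376). The anaerobic change had an adjusted p of 0.0357 without the aerobic 6.85 h array and of 0.0366, at a change of -2.88, without the anaerobic 10.38 h array. SNZ1 and SNO1 correlated at 0.95 over the 8 anaerobic and at 0.94 over the 8 aerobic arrays. Without the 0 h arrays the correlations were 0.94 and 0.64. These are descriptions over serial samples of 1 culture each, in which the arrays share the course of time and feed glucose.

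**Figure D2:**
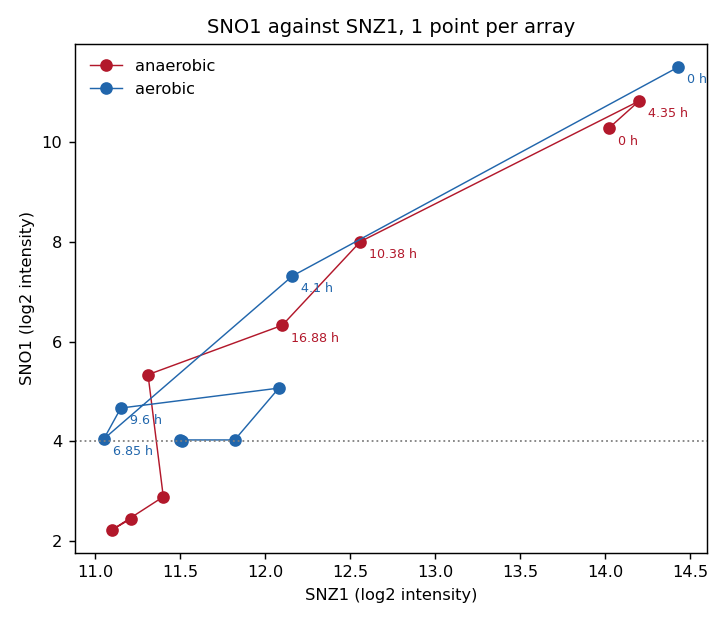
SNO1 against SNZ1, both as log2 intensity, with 1 point per array joined in time order, red for the anaerobic and blue for the aerobic series, and a dotted line at 4 log2 units. The 0 h arrays and the anaerobic 4.35 h array lie at the upper right, and the 3 late anaerobic arrays lie below the line at SNZ1 values of 11.10 to 11.40.

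Counted together, in late against early anaerobic samples 0 of the 8 genes were called higher and 1 lower, where 3.7% of the tested genes were called higher and 2.34% lower. In late against early aerobic samples 1 was called higher and 0 lower, where 11.2% and 4.28% of the tested genes were called higher and lower. The median change of the 8 was 0.32 in the anaerobic series, where that of all tested genes was 0.00, and 0.73 in the aerobic series, where that of all tested genes was 0.10. For mid samples against the mean of early and late ones, 0 of the 8 were called in either series, where 0.0% of genes were called in each direction in the anaerobic series, and 0.0959% were higher and 0.537% lower in the aerobic series (limma). The mid contrast of THI21 in the anaerobic series was -0.82 ± 0.36 with an unadjusted p of 0.0402, the one unadjusted p under 0.05 among the 8 genes there, against 99 of all tested genes. In the aerobic mid contrast 0 of the 8 and 1872 of all tested genes had such a p. Without the aerobic 0 h array THI2, THI4 and THI20 were called higher in that contrast and 0 lower, where 16.2% of tested genes were higher and 17.5% lower. With 13 arrays (described next), THI2 and THI20 were called higher there and 0 lower, where 5.83% were higher and 7.79% lower.

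Without the pair of 0 h arrays and the aerobic 9.6 h array, 5 of the 8 genes were called in each series. This choice of 13 arrays was made with earlier results of these data known. In that fit of the anaerobic series THI4, THI20 and THI2 rose, by 1.12 ± 0.37, 0.81 ± 0.13 and 0.73 ± 0.23 (limma, adjusted p = 0.034, 0.00276 and 0.0281), and SNO1 and SNZ1 fell, with changes of -6.90 ± 0.93 and -2.15 ± 0.45 (adjusted p = 0.0015 and 0.00669). Counted from the floor the change of SNO1 was -5.42. Among aerobic samples THI2 rose by 2.43 ± 0.23, THI4 by 2.09 ± 0.37, THI7 by 2.02 ± 0.20, THI20 by 1.26 ± 0.13 and THI21 by 1.18 ± 0.37 (adjusted p from 5.95e-05 to 0.02). THI80 stayed uncalled, at -0.02 ± 0.24 in the anaerobic and 0.25 ± 0.24 in the aerobic series. The aerobic change of SNZ1 was then 0.00 ± 0.45 and that of SNO1 -1.66 ± 0.93, both uncalled. The background moved as well, to 20.9% of tested genes higher and 19.7% lower in the anaerobic series and 33.1% higher and 21.4% lower in the aerobic series. Leaving out the aerobic 0 h array alone gave 1 gene higher and 2 lower in the anaerobic series, where 6.25% of tested genes were higher and 5.49% lower. It gave 5 higher and 0 lower in the aerobic series, where 22.3% were higher and 9.27% lower. The anaerobic count moved through the shared estimate of the spread, since no anaerobic array was left out.

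**Figure D3:**
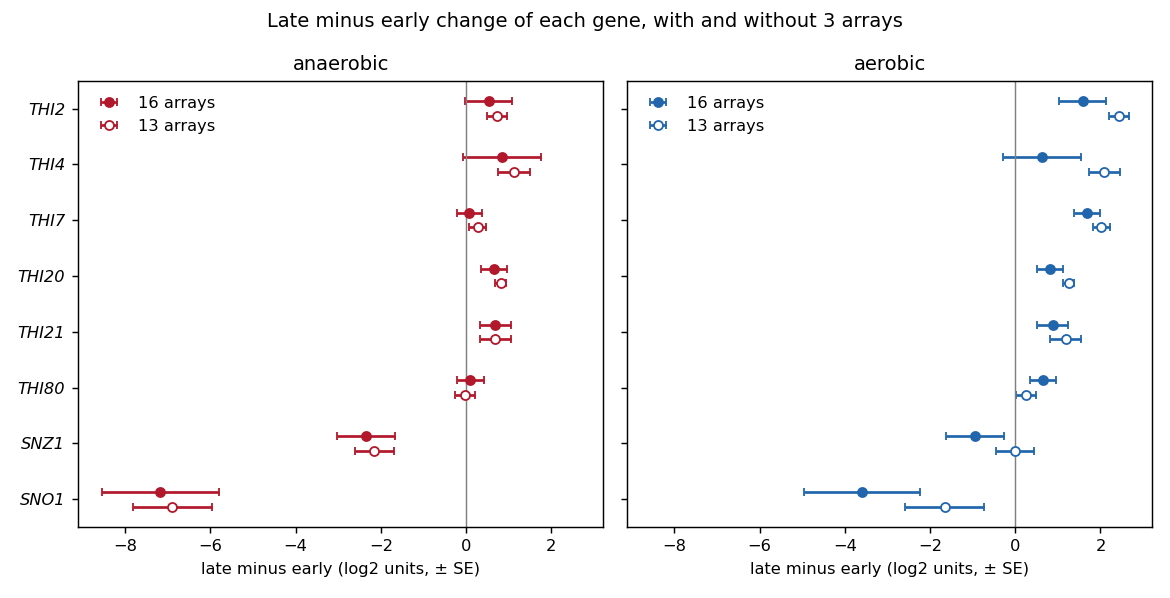
Late minus early change of each gene in log2 units with its standard error (bars), in the anaerobic (left) and aerobic (right) series, for the fit with 16 arrays (filled) and with 13 arrays (open). THI2 and THI4 in the aerobic series moved to 2.43 and 2.09 with 13 arrays, and THI80 stayed near 0 in both series with 13 arrays.

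The next question was whether the late minus early changes differed between the series. The phases were set by feed glucose within each series and not by the limiting nutrient. The genes listed for nitrogen limitation averaged 14.61 to 14.84 on aerobic mid and late arrays. On the anaerobic mid arrays and the 35.67 h late array they averaged 8.9 to 9.58. The part of this in the differences between the series was not tested. With 16 arrays 0 of the 8 genes were called, where 0.844% of the tested genes were higher and 0.978% lower in the anaerobic minus aerobic difference. The largest of the thiamine genes in size was THI7, at -1.61 ± 0.43 with an adjusted p of 0.0897 by limma. It passed, at -1.80 with an adjusted p of 0.0465, without the anaerobic 10.38 h array. The difference was -1.05 ± 0.78 for THI2, -1.42 ± 0.97 for SNZ1 and -3.58 ± 1.93 for SNO1 (limma, adjusted p = 0.608, 0.563 and 0.44). At an unadjusted p under 0.05, 1 of the 8 and 758 of all tested genes passed. With 13 arrays, THI7, THI2 and SNO1 were called, at -1.75 ± 0.28, -1.70 ± 0.32 and -5.23 ± 1.31 (limma, adjusted p = 0.00565, 0.0117 and 0.036), where 3.78% of genes were higher and 5.99% lower. The SNO1 values rest on late anaerobic arrays under the floor. With values under 4 set to 4, the SNO1 difference was -2.10 with 16 arrays and -3.76 with 13 arrays, for which no test was made. Without the aerobic 0 h array alone, the same 3 genes were called lower and 0 of the 8 higher, where 1.25% of tested genes were higher and 2.32% lower.

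Levels were then compared between the series as a whole, as the mean of the anaerobic minus aerobic differences in early, mid and late samples. In the deposited values 3 of the 8 genes were called lower in the anaerobic series and 0 higher, where 62.3% of all tested genes were called lower and 8.0% higher. The median difference over all tested genes was -0.51. THI80 was at -1.08 ± 0.20, THI7 at -1.0 ± 0.19 and THI20 at -0.88 ± 0.19 (limma, adjusted p = 0.000327, 0.000472 and 0.00104). After each array was centred on its median, these became -0.50, -0.41 and -0.30 (limma, adjusted p = 0.0554, 0.0618 and 0.152). Of the 8 genes 0 were then called, where 2765 of the 5213 tested genes were called in either direction. THI4 was at -1.23 ± 0.57 with an adjusted p of 0.0704 and passed, at -0.79 ± 0.24, with 13 arrays, where 68.5% of genes were called lower and 10.7% higher. THI4 also passed when any 1 of the 3 early aerobic arrays was left out, at -0.74, -1.40 and -1.54 without the 0 h, the 4.1 h and the 6.85 h array. In these fits 3749, 3579 and 3620 of the 5213 tested genes were called. Over all 27 alternatives the THI4 difference ran from -1.55 to -0.59 and its adjusted p by limma from 0.0114 to 0.333. The differences of THI2 (-0.40 ± 0.35), THI21 (-0.25 ± 0.22), SNZ1 (0.25 ± 0.43) and SNO1 (0.52 ± 0.85) were not called.

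By phase, the centred difference between the series changed with the gene. Mid and late samples of the series also differed in the genes listed for nitrogen limitation, as given above, and the part of this was not tested. For THI7 it was 0.30 in early, -0.33 in mid and -1.21 in late samples, and the deposited early difference was -0.23. For THI4 it was -0.36, -1.54 and -0.04 in the same order, so the gap was widest in mid samples. SNZ1 had 1.58, 0.68 and 0.25 after centring, and 1.05, 0.09 and -0.37 in the deposited values, so the direction in late samples turns with the scaling. THI80 was below 0 in each phase under both scalings, with centred differences of -0.33, -0.40 and -0.77. SNO1 was at 2.61 and 1.56 in early and mid samples. Its late samples lay under the floor in the anaerobic series and at 4.00 to 4.03 in the aerobic series, and their difference is not read here.

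**Figure D4:**
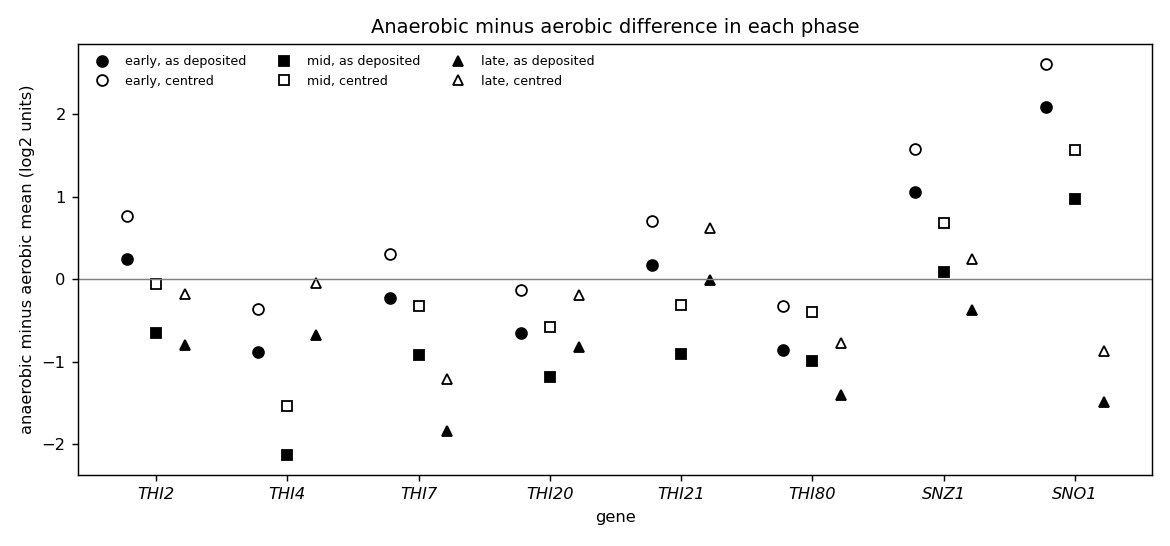
Anaerobic minus aerobic difference of group means in log2 units for each gene, in early (circles), mid (squares) and late (triangles) samples, from the deposited values (filled) and after centring each array on its median (open). Centring raises each difference, and the centred late difference of THI7 is -1.21 while the centred early differences of SNZ1 and SNO1 are 1.58 and 2.61.

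Ordered by group mean, the aerobic late group was highest for THI2, THI7, THI20, THI21 and THI80, the aerobic mid group for THI4 and the anaerobic early group for SNZ1 and SNO1. For THI21 the aerobic late mean was 11.11 and the anaerobic late mean 11.10, with overlap. After centring, the anaerobic late mean of THI21 was the higher of these by 0.62. The lowest group was anaerobic mid for THI4, THI7 and THI21, anaerobic early for THI20 and THI80, aerobic early for THI2 and anaerobic late for SNZ1. For SNO1 the late groups of both series lay below the others, and they are not ordered here because the anaerobic one is under the floor. Most neighbours in these orders overlapped. For THI7 the aerobic late group (13.24 ± 0.26, SD, n = 3) did not overlap the next one, aerobic mid (11.99 ± 0.51, SD, n = 2). For THI20 the anaerobic late group (10.67 ± 0.09, SD, n = 3) did not overlap the next, anaerobic mid (10.30 ± 0.08, SD, n = 2). For THI2 the gap lay between aerobic mid (8.52 ± 0.52, SD, n = 2) and anaerobic late samples (7.95 ± 0.07, SD, n = 3). The orders of deposited values include the lower medians of the anaerobic arrays.

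The other genes of thiamine metabolism were taken from a list of 15, of which 12 were measured under their symbol and tested. In late against early anaerobic samples 4 were called higher, where 3.7% of all tested genes were, and 0 lower, and the median change was 0.69. The aerobic counts were 6 higher, where 11.2% of all tested genes were, and 0 lower, with a median of 0.84. With 13 arrays 8 of the 12 were called higher in the anaerobic and 11 in the aerobic series, where 20.9% and 33.1% of all tested genes were, and 0 were called lower in either. THI6, which joins the thiazole and the pyrimidine, rose in both, by 1.00 ± 0.21 in the anaerobic and 1.05 ± 0.21 in the aerobic series (limma, adjusted p = 0.018 and 0.0081). THI6 had 11.30, 10.71, 10.89, 11.20, 11.64, 11.65, 12.02 and 12.23 along the anaerobic series, and 11.71, 11.10, 11.21, 12.64, 12.40, 12.42, 12.34 and 12.41 along the aerobic series, with the same low pair at 4.1 and 6.85 h as THI4. THI22, related in sequence to the pyrimidine kinases, also rose in both, by 1.01 ± 0.22 in the anaerobic and 0.73 ± 0.22 in the aerobic series (adjusted p = 0.0206 and 0.044). Of 27 alternatives, the call of THI6 was lost in 6 for the anaerobic and 2 for the aerobic series, and that of THI22 in 7 and 12. In the comparison between the series, 2 of the 12 were called higher and 5 lower in anaerobic samples, where 8.0% and 62.3% of all tested genes were. The median difference of the 12 was -0.17 where that of all genes was -0.51.

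Among transporters, NRT1, a nicotinamide riboside transporter related to THI7, rose by 0.77 ± 0.19 in the anaerobic and 1.91 ± 0.19 in the aerobic series (limma, adjusted p = 0.0312 and 0.000134). The anaerobic call was lost in 11 of 27 alternatives and the aerobic one in 1. It was also the one gene of this list with a called difference of changes, -1.14 ± 0.26 (adjusted p = 0.0496), a call lost in 18 of 26 alternatives. Its level was higher in the anaerobic series by 1.99 ± 0.12 (adjusted p = 1.23e-07), and this difference was 2.57 after centring. THI72, a transporter close to THI7, was higher in the anaerobic series by 0.79 ± 0.26 (limma, adjusted p = 0.0171), a call lost in 2 of 27 alternatives. Its late minus early changes, 0.84 ± 0.42 in the anaerobic and 0.58 ± 0.42 in the aerobic series, were not called. PHO3, an acid phosphatase that splits thiamine phosphates outside the cell, rose by 1.53 ± 0.35 in the anaerobic series (adjusted p = 0.0267, lost in 6 of 27 alternatives) and had 0.91 ± 0.35 in the aerobic series (adjusted p = 0.101). TPC1, the mitochondrial carrier of thiamine diphosphate, was not called in either series, at -0.12 ± 0.14 in the anaerobic and 0.16 ± 0.14 in the aerobic series.

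Beside THI2, the list held the regulators THI3 and PDC2. THI3, a thiamine diphosphate sensor that acts with Thi2, had a change of 0.06 ± 0.15 in the anaerobic series and rose by 0.84 ± 0.15 in the aerobic series (limma, adjusted p = 0.845 and 0.00451). PDC2, a transcription factor needed for the thiamine and pyruvate decarboxylase genes, had 0.02 ± 0.15 in the anaerobic series and rose by 0.84 ± 0.15 in the aerobic series (adjusted p = 0.941 and 0.00366). With 13 arrays the difference of changes was called for both, at -0.86 ± 0.20 for THI3 and -0.88 ± 0.22 for PDC2 (limma, adjusted p = 0.0264 and 0.0337). PET18 rose by 0.94 ± 0.28 in the aerobic series (adjusted p = 0.0437), a call lost in 12 of 27 alternatives. Its level was lower in the anaerobic series, at -1.57 (limma, adjusted p = 9.28e-06), a call lost in 0 of 27. With 13 arrays, 0 of the 12 genes were higher and 4 lower in the difference of changes, namely NRT1, THI3, PDC2 and THI73. Of all tested genes 3.78% were higher and 5.99% lower there.

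THI13, one of the near-identical genes THI5, THI11, THI12 and THI13 for the pyrimidine precursor, was read by a shared probe set and is uncertain between these copies. Its values were 11.69, 9.18, 9.56, 10.43, 10.66, 11.05, 11.21 and 11.21 in the anaerobic series and 11.62, 8.58, 8.64, 10.60, 10.88, 9.93, 9.41 and 9.36 in the aerobic series. The 0 h array was the highest of each series. From 4.35 h the anaerobic values never fell, whereas the aerobic ones peaked at 14.5 h. The late minus early change was 1.01 ± 0.75 in the anaerobic and -0.05 ± 0.75 in the aerobic series, not called, and with 13 arrays it was 1.78 ± 0.19 and 0.95 ± 0.19 (limma, adjusted p = 0.000649 and 0.00204).

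**Figure D5:**
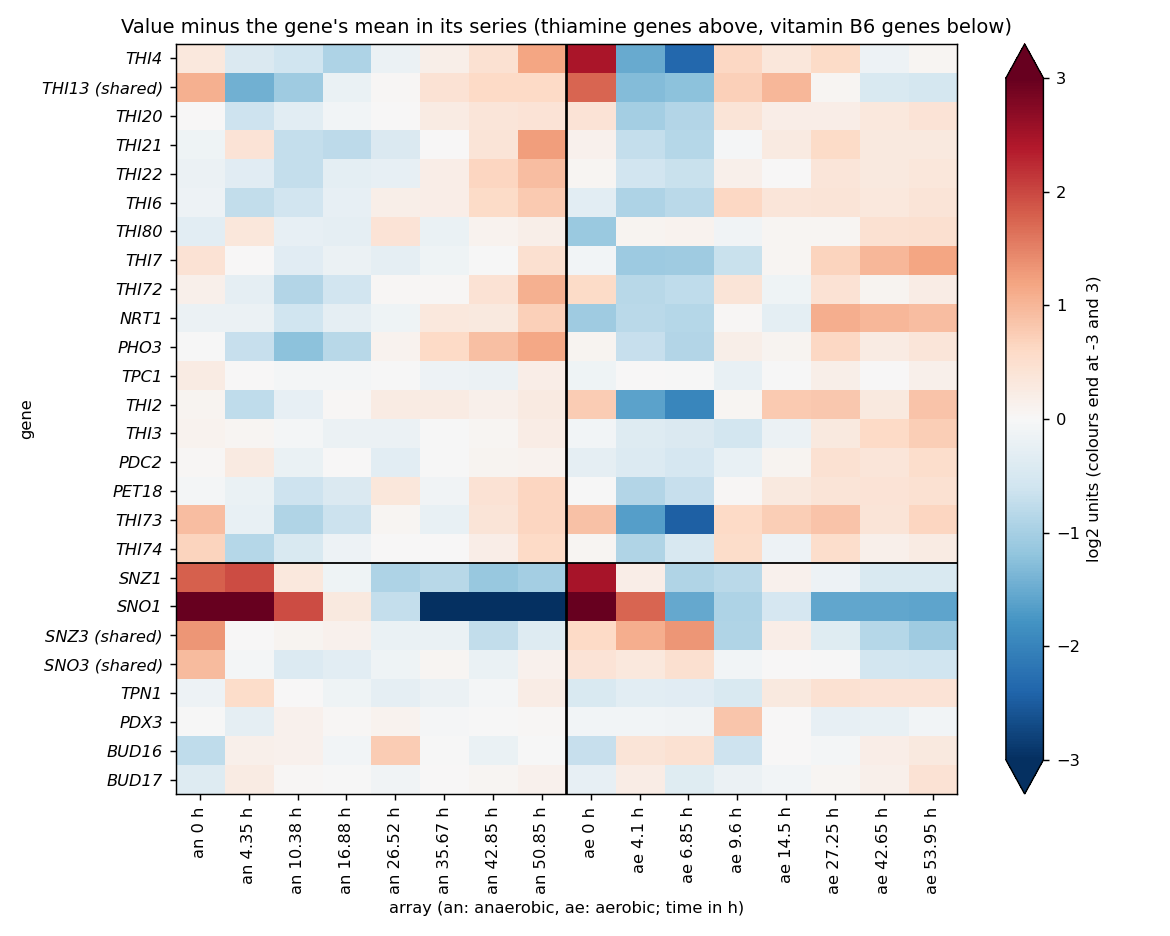
Each cell is the log2 value of a gene on an array minus its mean in that series (colour, ending at -3 and 3), with 18 thiamine genes above the line and 8 vitamin B6 genes below it, anaerobic arrays on the left and aerobic arrays on the right in time order. Most thiamine genes are low around 4.35 to 16.88 h in the anaerobic series and at 4.1 and 6.85 h in the aerobic series, and SNZ1 and SNO1 start high in both.

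Of 8 other vitamin B6 genes listed, 6 were measured under their symbol and tested. In the anaerobic series 0 were called, with a median change of -0.05, where 3.7% of all tested genes were higher and 2.34% lower. For aerobic samples 1 was called higher and 1 lower, with a median of -0.01, where 11.2% and 4.28% of all tested genes were. At an unadjusted p under 0.05, 1 of the 6 passed in the anaerobic and 3 in the aerobic series, against 1168 and 1665 of all tested genes. With 13 arrays 0 were called in the anaerobic series, where 20.9% of all tested genes were higher and 19.7% lower. In the aerobic series 1 was then higher and 2 lower, where 33.1% and 21.4% of all tested genes were. TPN1, the pyridoxine transporter of the plasma membrane, had a change of -0.14 ± 0.21 in the anaerobic series and rose by 0.79 ± 0.21 in the aerobic series (limma, adjusted p = 0.738 and 0.0261), a call lost in 8 of 27 alternatives. SNZ3, a relative of SNZ1 on a probe set shared with its near-identical copy, had -0.91 ± 0.38 in the anaerobic series and fell in the aerobic series, at -1.77 ± 0.38 (adjusted p = 0.174 and 0.0105), a call lost in 4 of 27 alternatives. Its values were 11.42, 10.11, 10.17, 10.22, 9.89, 9.90, 9.36 and 9.70 in the anaerobic series and 12.10, 12.58, 12.83, 10.59, 11.69, 11.13, 10.64 and 10.42 in the aerobic series. The aerobic SNZ3 values were thus high at 4.1 and 6.85 h, where SNZ1 had already dropped from its 0 h value. SNO3, also on a shared probe set, had changes of -0.17 ± 0.28 in the anaerobic and -0.79 ± 0.28 in the aerobic series (limma, adjusted p = 0.763 and 0.0733). PDX3, BUD16 and BUD17, for the oxidase and kinases of the salvage route, had changes between -0.11 and 0.34, none called in either series. In the comparison between the series, 1 of the 6 was called higher and 4 lower in anaerobic samples, where 8.0% and 62.3% of all tested genes were. SNZ3 was at -1.36 there (limma, adjusted p = 0.000228), a call lost in 0 of 27 alternatives.

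The enzymes that use the cofactors gave few calls with 16 arrays. Of all tested genes, 3.7% were called higher and 2.34% lower in the anaerobic series, and 11.2% and 4.28% in the aerobic series. Of 10 thiamine diphosphate enzymes, 0 were called higher and 1 lower in the anaerobic series, and 1 higher and 0 lower in the aerobic series. The gene called higher was PDC5, for a pyruvate decarboxylase, which had a change of 0.19 ± 0.39 in the anaerobic series and rose by 3.28 ± 0.39 in the aerobic series (limma, adjusted p = 0.815 and 0.000417). PDC5 averaged 13.95 ± 1.05 in late and 10.68 ± 0.31 in early aerobic samples (SD, n = 3 each). Of 30 pyridoxal phosphate enzymes 0 were called in the anaerobic series. At an unadjusted p under 0.05, 4 of them and 1168 of all tested genes passed there. In the aerobic series 0 were called higher and 1 lower. The gene called lower was THR4, threonine synthase, at -0.63 ± 0.18 (limma, adjusted p = 0.0385), a call lost in 8 of 27 alternatives. With 13 arrays, 5 of the 30 were higher and 6 lower in the anaerobic series, where 20.9% and 19.7% of all tested genes were. In the aerobic series 12 were then higher and 11 lower, where 33.1% and 21.4% of all tested genes were. Of 21 genes for other vitamins, 1 was called higher and 1 lower in the anaerobic series, and 2 higher and 3 lower in the aerobic series. Among them VHT1, the biotin transporter, fell in both, at -1.57 ± 0.34 in the anaerobic and -2.05 ± 0.34 in the aerobic series (limma, adjusted p = 0.0199 and 0.00278).

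The genes most like each of the 8 in course were named by the mean of the correlation over the 8 anaerobic and that over the 8 aerobic arrays, among the tested genes. SNO1 was the most like SNZ1, at 0.948, and SNZ1 the most like SNO1. After it came YOR302W (0.937) and CPA1 (0.932) for SNZ1, and GNP1 (0.91) and UBC11 (0.897) for SNO1. For THI4 they were PCA1 (0.939), YLL056C (0.93) and THI72 (0.925), and THI72 was the one gene from the thiamine list. For THI7 they were AGA1 (0.961), YIL082W-A on a shared probe set (0.945) and YGL114W (0.944), and for THI80 RHO3 (0.963), KCH1 (0.903) and HFI1 (0.881). THI20 was most like DUF1 (0.971), YLR031W (0.97) and PIG2 (0.966), THI2 like STE3 (0.947), GTT2 (0.946) and YLR031W (0.937), and THI21 like ISC10 (0.935), YIL092W (0.925) and GAL1 (0.923). Among the 8 themselves, THI2 and THI20 correlated at 0.91 in the anaerobic and 0.94 in the aerobic series. THI2 and THI21 correlated at 0.06 in the anaerobic and 0.96 in the aerobic series. These correlations describe serial samples that share time and feed glucose, and carry no test.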

How the data were processed

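The authors deposited log2 intensities for 16 Affymetrix arrays of biotin-labelled cRNA, made with GCRMA per the submitters' processing notes. GCRMA corrects background, normalizes and summarizes each probe set. Its version and options, and any joint treatment of the series, are not given in the sources used. Values ran from 1.96 to 16.75, from which log base 2 was taken. A joint scaling of the series can set differences in level between them.

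Of 5716 probe sets, 5498 had 1 gene symbol, 0 several and 218 none. The probe set of highest mean stood for each of 47 genes that had more than 1. The 5213 genes at or above 4 log2 units on at least 3 arrays were tested and 236 were not. A model of 6 cell means (oxygen by early, mid and late) was fitted in R 4.3.3 with limma 3.58.1, using lmFit and eBayes with trend on the 16 arrays and leaving 10 residual degrees of freedom. A gene was called where its p, adjusted by Benjamini-Hochberg over all genes tested, was under 0.05. The scripts were tested on simulated data.

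The 8 genes, the lists and the alternatives were chosen with earlier results of these data known. All 8 genes are named. Any gene of the lists of other thiamine and vitamin B6 genes could be named, with up to 3 called genes of largest change from the remaining lists and the 3 genes of most similar course. Marker lists of a cells, alpha cells, growth without oxygen, nitrogen limitation and high glucose were also summed. The genes listed for high glucose averaged 5.23 to 8.21 on anaerobic and 5.31 to 11.87 on aerobic arrays. Alternatives were other filters, normalizations, variance models, phases, probe set means, a slope on log2 feed glucose, single series, 6 pairs of nearest feed glucose, 13 arrays, and leaving out each array. No detection calls or sequences were used here.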

Additional observations from a re-analysis of the deposited data

Results flagged for a closer look

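For 2 genes of the lists beside the 8, the late minus early change differed between the series by the test of the difference itself (limma over all tested genes, anaerobic minus aerobic). For NRT1, the transporter related to THI7, the difference was -1.14 ± 0.26 (SE) log2 units with an adjusted p of 0.0496, a call lost in 18 of 26 alternatives. For PDC5, a pyruvate decarboxylase, it was -3.09 ± 0.55 with an adjusted p of 0.0186, a call lost in 6 of 26.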

How the results depend on the processing

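Over 1529 recomputed changes of single genes, 1327 kept their direction and side of the threshold, 143 lost and 34 gained a call, and 25 reversed. For late minus early, the number of the 8 genes called in the anaerobic series (1 as reported) was 0 with 2 phases of 4 samples, 2 with the arrays of that series alone or a slope on log2 feed glucose, 5 with 13 arrays, and 0 to 3 when single arrays were left out. In the aerobic series (1 as reported) it was 2 with quantile normalization or the slope, 5 with 13 arrays, and 1 to 5 when single arrays were left out. For the difference of changes (0) it was 3 with 13 arrays and 0 to 3 without single arrays. For aerobic mid samples (0) it was 3 without the aerobic 0 h array. Fits that left 1 array in the aerobic mid group, such as that with 13 arrays, are not counted for that contrast. For anaerobic minus aerobic (3) the number was 1 with quantile normalization and 0 with centring. With 6 pairs of nearest feed glucose as a block it was 4. Calls among all tested genes moved too. For late minus early they ran from 74 (without the anaerobic 42.85 h array) to 2120 (13 arrays) in the anaerobic series. In the aerobic series they ran from 122 (2 phases of 4 samples) to 2841 (13 arrays). For the difference of changes, 509 were called with 13 arrays. For anaerobic minus aerobic, 2539 were called with quantile normalization, 2765 with centring and 3096 with the 6 pairs, of 5213 tested. None of the reversed values had been called in its own comparison. The aerobic change of THI4 was -0.10 with quantile normalization, -0.73 with the slope and -0.31 to 2.09 without single arrays. That of SNZ1 was 0.00 with 13 arrays and -1.69 to 0.00 without single arrays. In the anaerobic series THI7 was -0.15 with the slope and -0.11 to 0.27 without single arrays, and THI80 -0.02 with 13 arrays and -0.02 to 0.31 without single arrays. The difference of changes was -0.97 with 13 arrays and -1.25 to 1.16 without single arrays for THI4, 0.06 with the slope and -0.61 to 0.09 for THI20, and -0.53 to 0.10 for THI21. The anaerobic minus aerobic difference was 0.19 with quantile normalization and 0.18 with centring for THI2, 0.35 and 0.34 for THI21, and -0.08 to 1.16 without single arrays for SNO1. The cause of these shifts was not tested. The labels give no replicate numbers, so no block by replicate was fitted.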
